A study of Homo sapiens with 64 samples.

Results

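The genes described here encode the EGF receptor, EGF-family ligands and intracellular inhibitors that restrain the receptor and the RAS-ERK pathway below it. The members were 10 named genes: EGFR, the ligand genes HBEGF, EREG and AREG, and the inhibitor genes ERRFI1, SPRY1, SPRY2, SPRY4, SPRED1 and SPRED2. Each was read from 1 probe set, the brightest on average over the 64 arrays among those annotated with that symbol alone. By this rule 9 of the 10 were measured, among 18132 genes in all, and AREG was not analysed here. They were measured in BEAS-2B cells, a virally immortalised line derived from human bronchial epithelium, held overnight without serum. Cells were left untreated, given budesonide at 100 nM, given formoterol at 10 nM, or given both (the combination), and were collected after 1, 2, 6 and 18 h. Budesonide is an inhaled glucocorticoid that acts through a nuclear receptor, and formoterol is an inhaled beta2-adrenoceptor agonist that raises cyclic AMP. There were 4 arrays in each of the 16 groups, which the labels call independent determinations, and the untreated cells are not described as given a vehicle.

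The EGF receptor is a membrane tyrosine kinase that dimerises when a ligand binds and passes the signal on through adaptors to RAS and the ERK kinases. Its ligands are made as membrane-bound precursors and freed by metalloproteases, and in airway epithelium the receptor is known for its part in repair after injury, mucus production and the release of inflammatory mediators. The pathway also induces its own inhibitors: ERRFI1 (also called MIG6) binds the kinase domain of the receptor, and the Sprouty (SPRY) and SPRED proteins act on the path to RAS and RAF.

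Promoters of the 4 members with the largest changes are shown as RefSeq lists them in the GRCh38.p14 build. All 9 measured members had at least 1 start in that table, and each line holds the 250 bases before the first start listed. The lines are ERRFI1 at chr1:8026310-8026559 on the minus strand, SPRY1 at chr4:123396545-123396794 on the plus strand, SPRY2 at chr13:80341127-80341376 on the minus strand and HBEGF at chr5:140346604-140346853 on the minus strand. Capitals mark TGACG, the core of the cyclic AMP response element.
ERRFI1: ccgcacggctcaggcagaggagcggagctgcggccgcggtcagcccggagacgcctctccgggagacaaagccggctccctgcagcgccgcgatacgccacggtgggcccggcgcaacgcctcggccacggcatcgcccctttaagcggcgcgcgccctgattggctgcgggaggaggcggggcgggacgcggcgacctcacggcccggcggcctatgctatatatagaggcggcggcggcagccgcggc
SPRY1: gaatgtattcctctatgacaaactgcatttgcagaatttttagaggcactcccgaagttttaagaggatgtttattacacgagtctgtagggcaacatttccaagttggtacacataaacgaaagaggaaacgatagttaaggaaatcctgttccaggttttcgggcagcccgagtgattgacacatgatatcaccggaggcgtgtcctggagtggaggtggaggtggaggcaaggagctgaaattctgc
SPRY2: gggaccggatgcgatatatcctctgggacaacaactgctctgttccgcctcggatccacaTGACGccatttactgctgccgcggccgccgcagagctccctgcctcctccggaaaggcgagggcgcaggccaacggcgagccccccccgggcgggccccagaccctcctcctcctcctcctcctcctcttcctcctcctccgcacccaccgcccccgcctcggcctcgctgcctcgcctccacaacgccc
HBEGF: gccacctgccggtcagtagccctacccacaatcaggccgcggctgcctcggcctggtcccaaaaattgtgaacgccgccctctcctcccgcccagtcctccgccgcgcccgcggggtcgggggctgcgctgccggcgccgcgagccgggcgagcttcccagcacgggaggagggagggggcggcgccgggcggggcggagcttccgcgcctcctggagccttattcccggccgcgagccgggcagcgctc
Windows of 300 bases, with 50 bases after the start included, were searched on both strands. The letters TGACG, which also lie inside TGACGTCA, were found in windows of SPRY2 at position -190 from the start, SPRY4 at -68, EREG at -125 and, on the other strand, SPRED2 at 31. They occur in 24.6% of all 35116 promoter windows. The full element TGACGTCA, present in 1.85% of windows, was in no window of a measured member. It lay at -65 in the window of AREG, the member whose expression was not analysed here. The AP-1 letters TGANTCA, present in 7.71% of windows, were found in a window of EGFR at -232 and -136 and in one of SPRED2 at -6 and 35. The full palindromic glucocorticoid response element was in no member window and in 0.00285% of all windows. A match describes these letters only, and its absence says nothing about a factor.

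Values are log2 expression from RMA, so a difference of 1 is a doubling. Levels are compared within a probe set and not between them, and in RNA from whole cultures fewer expressing cells and less RNA per cell cannot be told apart. The median of all values was 4.90, the lower quartile 3.02, and array medians ran from 4.87 to 4.95. Differences are given ± SE from a limma fit of all 16 groups with n = 4 arrays per group, and a gene is called at a Benjamini-Hochberg adjusted p under 0.05 over all genes. Such p-values reflect only the spread among these cultures, and 4 arrays a group set the precision. Of the epithelial markers, KRT8, KRT18 and KRT7 lay above the median of all values while EPCAM, CDH1, KRT19 and KRT5 lay below it, so 3 of 7 were above. None of the 4 leukocyte and none of the 4 endothelial markers measured reached the median, and 2 of 5 fibroblast and smooth muscle markers did (COL1A1 and PDGFRB). A known target gene of each drug rose: FKBP5, a glucocorticoid-induced gene, rose by 3.05 ± 0.11 with budesonide at 6 h, and PDE4D, a cyclic AMP-induced phosphodiesterase, rose by 1.98 ± 0.14 with formoterol at 1 h. The 3' to 5' difference of the actin control probe sets, a sign of RNA quality, was highest on the replicate 1 array in 12 of 16 groups and on the replicate 3 array in the other 4, all at 2 h. Its group means ran from 0.956 to 1.38, and calls lost when all replicate 1 arrays were left out are named beside the results.

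**Figure D1:**
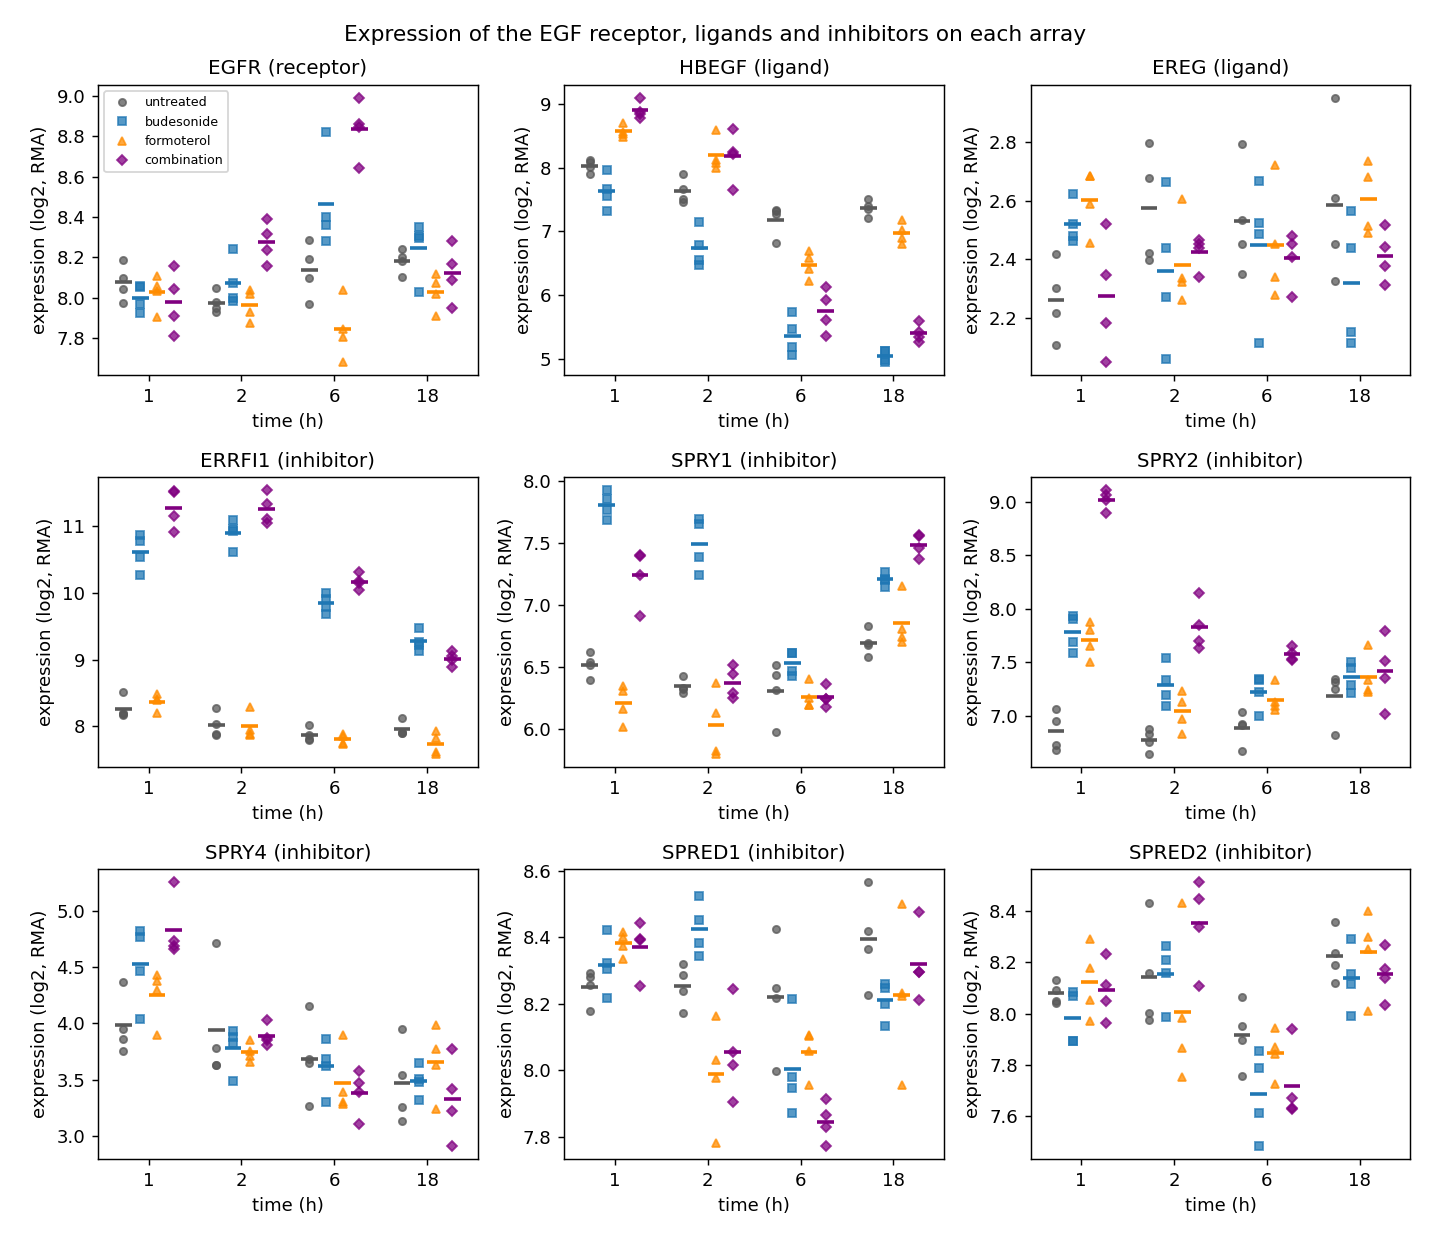
Log2 RMA expression (vertical axes, with a range of their own in each panel) of the 9 measured genes at 1, 2, 6 and 18 h (horizontal axes). Each point is 1 array, bars are the means of 4 arrays, and colours and shapes mark the treatments. The ERRFI1 arrays with budesonide or the combination lie above all untreated and formoterol arrays at every time, and the HBEGF arrays with either lie below them at 18 h.

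EGFR itself moved little and mainly at 6 h, where budesonide and the combination were higher and formoterol lower than untreated cells. At that time the combination also exceeded the sum of the single effects. At 6 h the untreated arrays read 8.29, 8.19, 8.10 and 7.97, and the budesonide arrays 8.82, 8.36, 8.28 and 8.40. The formoterol arrays read 8.04, 7.85, 7.81 and 7.68, and the combination arrays 8.99, 8.64, 8.86 and 8.84. The combination arrays lay above all untreated and all formoterol arrays, while budesonide overlapped with untreated cells through 1 array and formoterol overlapped with untreated cells as well.

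The combination raised EGFR by 0.70 ± 0.09 over untreated cells at 6 h (adjusted p = 3.39e-09), a 1.62-fold change. Budesonide alone raised it by 0.33 ± 0.09 (adjusted p = 0.00528). Formoterol alone lowered it, by -0.29 ± 0.09 (adjusted p = 0.0375). The single effects thus summed to 0.035 on the log2 scale, against 0.70 for the combination, and the difference between these, the interaction, was 0.66 ± 0.13 (95% interval 0.41 to 0.91, adjusted p = 0.00089). Against budesonide alone, to which the formoterol was added, the combination was higher by 0.37 ± 0.09 (adjusted p = 0.0035), with overlapping arrays. The same formoterol dose was thus followed by a lower EGFR level in its own right and a higher one on top of budesonide. The lower level came with overlapping arrays, and its call was lost under several alternatives, the mean of all probe sets among them. The combination was also 0.99 ± 0.09 above formoterol alone (adjusted p = 4.37e-14), a 1.99-fold difference.

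At 2 h the combination was higher than untreated cells by 0.30 ± 0.09 (adjusted p = 0.0178) and higher than formoterol by 0.31 ± 0.09 (adjusted p = 0.025). At 2 h the combination was also 0.20 above budesonide (adjusted p = 0.312), and in a fit that blocked the replicate numbers separately at each time, in a comparison where the numbers paired the arrays, the adjusted p was 0.0361. At 1 and 18 h EGFR passed the test in no comparison, and the combination differed from untreated cells by -0.10 (95% interval -0.27 to 0.08) at 1 h and by -0.06 (-0.24 to 0.12) at 18 h. The combination effect differed between times (moderated F test, adjusted p = 7.1e-07). The budesonide effect did not pass that test (adjusted p = 0.121). EGFR had 8 probe sets, and 3 others with a mean of at least 5 ran in the same direction for the 6 h combination, single-drug and interaction values. Over all the others the combination against untreated at 6 h ranged from -0.04 to 1.09. With the mean of all probe sets in place of the brightest, the interaction was 0.47 (adjusted p = 0.0859), the budesonide effect 0.19 (adjusted p = 0.216) and the formoterol effect -0.12 (adjusted p = 0.769). The 6 h budesonide call was also lost without budesonide replicate 1, where the difference was 0.21, and in a fit of the compared groups alone, as was the call against budesonide. The 6 h formoterol call was lost in that fit and without untreated replicate 1, 2 or 3 or formoterol replicate 2, 3 or 4, and over all arrays left out in turn its value ran from -0.36 to -0.24. The 2 h call against untreated cells was lost without untreated replicate 1 or combination replicate 2 or 4 (values of 0.26 to 0.34 over all arrays left out in turn), and that against formoterol without formoterol replicate 1 or 4 or combination replicate 2 or 4 (0.27 to 0.35). Both 2 h calls were also lost with the mean of all probe sets, where they were 0.20 (adjusted p = 0.216) and 0.23 (adjusted p = 0.277), and the call against formoterol also in the fit of the compared groups alone.

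HBEGF, the gene for heparin-binding EGF-like growth factor, was the member that fell most. With budesonide it lay further below untreated cells at each later time, formoterol raised it at 2 h and lowered it at 6 h, and with both drugs it was above untreated cells at 1 and 2 h and below them at 6 and 18 h. At 1 h the untreated arrays read 8.09, 8.01, 8.12 and 7.90, and the combination arrays 8.77, 8.85, 9.09 and 8.87. At 18 h the untreated arrays read 7.35, 7.51, 7.40 and 7.21, the budesonide arrays 4.96, 4.98, 5.12 and 5.12, and the combination arrays 5.42, 5.26, 5.34 and 5.59. In neither case did the treated arrays overlap with untreated ones, and by 18 h all budesonide arrays were close to the median of all values.

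With budesonide HBEGF differed from untreated cells by -0.41 ± 0.15 at 1 h (adjusted p = 0.538), which was not called. It then fell by 0.90 ± 0.15 at 2 h (adjusted p = 2.42e-05), by 1.82 ± 0.15 at 6 h (adjusted p = 6.32e-15) and by 2.32 ± 0.15 at 18 h (adjusted p = 2.77e-19), which is 4.99-fold. These differences changed with time (moderated F test, adjusted p = 2.78e-10).

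Formoterol was 0.54 ± 0.15 above untreated cells at 1 h (adjusted p = 0.0704). In that comparison the replicate numbers paired the arrays, and with the replicate number as a block the adjusted p was 0.022. At 2 h formoterol arrays read 8.11, 8.00, 8.59 and 8.07 and untreated ones 7.46, 7.66, 7.90 and 7.51, a rise of 0.56 ± 0.15 (adjusted p = 0.0181) without overlap. At 6 h the direction was the opposite, a fall of 0.71 ± 0.15 (adjusted p = 0.00119), and at 18 h the difference of -0.39 (95% interval -0.70 to -0.08) was not called. The formoterol effect differed between times (moderated F test, adjusted p = 4.14e-06), a test that does not ask about direction. On a second, dimmer probe set the 6 h value was -0.07.

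The combination raised HBEGF by 0.86 ± 0.15 at 1 h (adjusted p = 5.81e-05) and by 0.54 ± 0.15 at 2 h (adjusted p = 0.0124, with overlapping arrays), and lowered it by -1.43 ± 0.15 at 6 h (adjusted p = 2.21e-11) and by -1.96 ± 0.15 at 18 h (adjusted p = 2.64e-16). Adding formoterol to budesonide therefore went with a level 1.27 ± 0.15 higher at 1 h (adjusted p = 8.14e-09) and 1.44 ± 0.15 higher at 2 h (adjusted p = 9.61e-11). Later the same comparison gave 0.39 at 6 h and 0.36 at 18 h, neither called (adjusted p = 0.135 and 0.486). The numbers paired the arrays there too, and with the block within each time the 6 h adjusted p was 0.0209. The 2 h combination level was close to that of formoterol alone, from which it differed by -0.02 (95% interval -0.33 to 0.29). At 6 h the single effects summed to -2.53 and the combination reached -1.43, an interaction of 1.10 ± 0.22 (adjusted p = 0.00162). The interaction at 2 h was 0.88 ± 0.22 (adjusted p = 0.0343). At 1 h it was 0.73 (95% interval 0.30 to 1.17, adjusted p = 0.402) and at 18 h 0.75 (0.31 to 1.19, adjusted p = 0.189), neither called. Fits of the compared groups alone called both (adjusted p = 0.0433 and 0.0279). So did the block within each time (adjusted p = 0.0274 and 0.00946), where not every same-numbered pair of arrays correlated above 0.1. All 4 interactions were thus positive, and whether their sizes differed was not tested. On the second probe set they were 0.50, 0.79, 0.31 and 0.51 at 1, 2, 6 and 18 h.

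HBEGF also drifted in untreated cells, which were lower at 6 h than at 1 h by -0.85 ± 0.15 (adjusted p = 0.0014) and at 18 h by -0.67 ± 0.15 (adjusted p = 0.0249). These were the only member calls in untreated cells over time, 2 of 27 pairs of member and time, where 0.0165%, 0.210% and 0.364% of all genes were called at 2, 6 and 18 h against 1 h. No member was called at 2 h, and 3 had an unadjusted p under 0.05. Without the replicate 1 arrays neither call remained. The 2 h formoterol, 2 h combination, 2 h interaction and 6 h interaction calls were also lost without them. Single arrays ended some calls as well: the 2 h formoterol call without untreated replicate 1 or 4 or formoterol replicate 3 (values of 0.43 to 0.65 over all arrays left out in turn), and the 2 h combination call without untreated replicate 1 or combination replicate 3 (0.40 to 0.72). The 2 h interaction call was lost without any single one of 11 of the 16 arrays at 2 h (0.74 to 1.06), and the 18 h drift without untreated replicate 1, 2 or 3 at 1 h or 1, 2 or 4 at 18 h (-0.72 to -0.61). With the mean of both HBEGF probe sets the interaction was 0.71 at 6 h (adjusted p = 0.343) and the formoterol effect at 6 h -0.39 (adjusted p = 0.322). That mean also ended the 2 h formoterol call (0.50, adjusted p = 0.108), the 2 h interaction (0.83, adjusted p = 0.186) and the 18 h drift (-0.55, adjusted p = 0.247), and gave 0.76 for formoterol at 1 h (adjusted p = 0.0071). In fits of the compared groups alone the 2 h formoterol, combination and interaction calls were lost. A second HBEGF probe set with a mean of 3.58 ran the same way in all called comparisons but with other sizes. Its difference was smaller for budesonide at 18 h, -0.98, and for the interaction at 6 h, 0.31, and larger for the combination at 1 h, 1.11, and 2 h, 0.68.

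EREG, the gene for epiregulin, was near the bottom of the scale in every group. Its group means ran from 2.26 to 2.61, below the lower quartile of 3.02, and no comparison called it. With the mean of its 4 probe sets it was called at 1 h, at 0.29 for formoterol (adjusted p = 0.00437), -0.24 for the combination against formoterol (adjusted p = 0.0294) and -0.43 for the interaction (adjusted p = 0.0109). At so low a level a change may not be measurable with this probe set.

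ERRFI1 had the largest rise of the members. All 4 budesonide arrays and all 4 combination arrays lay above all untreated and all formoterol arrays at each of the 4 times. At 1 h the untreated arrays read 8.19, 8.17, 8.52 and 8.19, the budesonide arrays 10.54, 10.86, 10.78 and 10.27, and the combination arrays 11.15, 11.53, 11.51 and 10.91. At 18 h the untreated arrays read 7.92, 8.13, 7.91 and 7.90, the budesonide arrays 9.22, 9.27, 9.14 and 9.47, and the combination arrays 8.99, 9.05, 8.89 and 9.13. The groups were thus still apart at 18 h but by less.

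The rise with budesonide was 2.34 ± 0.12 at 1 h (adjusted p = 3.36e-24), 2.88 ± 0.12 at 2 h (adjusted p = 9.96e-29), 1.96 ± 0.12 at 6 h (adjusted p = 2.63e-21) and 1.31 ± 0.12 at 18 h (adjusted p = 3.41e-14). In folds these were 5.07, 7.34, 3.90 and 2.48. The change with time passed the moderated F test (adjusted p = 2.32e-10). With the combination the rise was 3.01, 3.23, 2.29 and 1.05 at the same times, each ± 0.12, and the highest fold was 9.41 at 2 h.

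Formoterol alone called ERRFI1 at no time. Its differences were 0.10, -0.02, -0.07 and -0.22 at 1, 2, 6 and 18 h, with 95% intervals of -0.13 to 0.34, -0.25 to 0.22, -0.30 to 0.16 and -0.46 to 0.0093. On top of budesonide, however, the level at 1 h was higher by 0.66 ± 0.12 (adjusted p = 7.01e-05), 1.58-fold. At 2 h it was higher by 0.36 ± 0.12 (adjusted p = 0.071), and there the replicate numbers paired the arrays and the fit with the replicate block gave an adjusted p of 0.0428. At 6 h the difference was 0.32 and at 18 h -0.26, and neither was called (adjusted p = 0.0892 and 0.525). The numbers paired the arrays in both, and with the block within each time the adjusted p was 0.00165 at 6 h and 0.0407 at 18 h, with the combination above budesonide at 6 h and below it at 18 h. The single effects summed to 2.45 at 1 h, and the interaction of 0.56 ± 0.17 (95% interval 0.23 to 0.89) was not called (adjusted p = 0.38). At 2 h it was 0.37 (0.04 to 0.71, adjusted p = 0.987) and at 6 h 0.39 (0.06 to 0.73, adjusted p = 0.616). The block within each time called those at 1 and 6 h (adjusted p = 0.00167 and 0.0316), where not every same-numbered pair of arrays correlated above 0.1. Whether the combination exceeded the sum thus depended on the fit. ERRFI1 had 1 probe set, so no other one could be compared.

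Sprouty proteins are induced by receptor tyrosine kinase signalling and act as brakes on it. At 1 and 2 h SPRY1 was higher with budesonide than with both drugs, while SPRY2 at 1 h rose with each drug and was highest with both. Whether the SPRY1 and SPRY2 responses differed from each other was not tested, and their values come from different probe sets.

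For SPRY1 the untreated arrays at 2 h read 6.29, 6.32, 6.42 and 6.33, the budesonide arrays 7.65, 7.24, 7.69 and 7.38, and the combination arrays 6.25, 6.29, 6.44 and 6.52. The formoterol arrays read 5.80, 6.13, 5.82 and 6.37. The budesonide arrays stood above all others at that time, and the combination overlapped with untreated cells. Budesonide raised SPRY1 by 1.29 ± 0.11 at 1 h (adjusted p = 3.45e-14) and by 1.15 ± 0.11 at 2 h (adjusted p = 1.41e-12). With the combination the rise was 0.72 ± 0.11 at 1 h (adjusted p = 1.73e-06) and 0.03 ± 0.11 at 2 h (adjusted p = 0.953, 95% interval -0.19 to 0.25). The combination thus lay below budesonide by -0.57 ± 0.11 at 1 h (adjusted p = 0.000346) and by -1.12 ± 0.11 at 2 h (adjusted p = 4.32e-12), the latter 2.17-fold.

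At 2 h the single effects on SPRY1 summed to 0.84 where the combination gave 0.03, an interaction of -0.81 ± 0.16 (adjusted p = 0.00117). That interaction was not called when the 4 groups at 2 h were fitted alone (adjusted p = 0.0649). Formoterol alone gave -0.31 ± 0.11 at both 1 and 2 h (adjusted p = 0.273 and 0.102), and with the replicate block the adjusted p at 2 h, where the numbers paired the arrays, was 0.037. In the same way the combination stood above formoterol at 2 h by 0.34 ± 0.11 with an adjusted p of 0.0626, and of 0.019 with the replicate block. At 6 h no comparison called SPRY1, and the combination differed from budesonide by -0.27 (adjusted p = 0.143). The numbers paired the arrays there, and with the block within each time the adjusted p was 0.0402. At 18 h it was called again: budesonide gave 0.51 ± 0.11 (adjusted p = 0.000252) and the combination 0.79 ± 0.11 (adjusted p = 3.18e-08). The combination at 18 h differed from budesonide by 0.28 (95% interval 0.06 to 0.50, adjusted p = 0.372). The time tests for budesonide (adjusted p = 7.63e-08) and for the combination (adjusted p = 1.33e-06) both passed. SPRY1 had 2 other probe sets, with values identical to each other, which gave an interaction of -1.02 at 2 h.

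SPRY2 at 1 h read 7.06, 6.95, 6.73 and 6.67 on the untreated arrays, 7.93, 7.69, 7.59 and 7.91 with budesonide, and 7.87, 7.65, 7.50 and 7.80 with formoterol. With the combination it read 9.07, 8.89, 9.11 and 9.02. The groups with 1 drug overlapped with each other and lay above untreated cells, and the combination lay above them all. Budesonide raised it by 0.93 ± 0.12 (adjusted p = 1.66e-07), formoterol by 0.85 ± 0.12 (adjusted p = 9.69e-07) and the combination by 2.17 ± 0.12 (adjusted p = 6.93e-22), 4.50-fold. The single effects summed to 1.78, and the interaction of 0.39 ± 0.18 was not called (95% interval 0.03 to 0.74). At 2 h budesonide gave 0.51 ± 0.12 (adjusted p = 0.00512) and the combination 1.05 ± 0.12 (adjusted p = 7.36e-10). At 6 h the combination gave 0.69 ± 0.12 (adjusted p = 1.25e-05), and at 18 h SPRY2 was called in no comparison. With the block within each time, where the numbers paired the arrays, formoterol at 2 h (0.26, adjusted p = 0.346) had an adjusted p of 0.0493 and the combination at 18 h (0.24, adjusted p = 0.2) one of 0.036. The time test passed for budesonide (adjusted p = 0.00736), formoterol (adjusted p = 0.0268) and the combination (adjusted p = 4.31e-13).

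The 2 h budesonide call of SPRY2 was lost without budesonide replicate 3, where it was 0.43, and without the replicate 1 arrays. On top of budesonide, formoterol went with a level 1.24 ± 0.12 higher at 1 h (adjusted p = 1.74e-11) and 0.54 ± 0.12 higher at 2 h (adjusted p = 0.00231). At 6 h the same comparison gave 0.35 ± 0.12 (adjusted p = 0.0851), and 0.0425 with the replicate block. SPRY2 was also higher with the combination than with formoterol alone by 0.43 ± 0.12 at 6 h (adjusted p = 0.0118), a call lost without the replicate 1 arrays.

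SPRY4 was dim, with group means from 3.33 to 4.83 that all lay below the median of all values. At 1 h the untreated arrays read 3.86, 4.37, 3.95 and 3.75 and the combination arrays 4.66, 4.69, 4.73 and 5.25, without overlap. The rise of 0.85 ± 0.20 (adjusted p = 0.0035) was its only call. Budesonide alone gave 0.54 ± 0.20 (adjusted p = 0.45). With the mean of its 3 probe sets the combination value was 0.34 (adjusted p = 0.076).

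SPRED1 and SPRED2, the genes for Sprouty-related inhibitors with an EVH1 domain, stayed within a narrow range, with group means of 7.84 to 8.43 and 7.69 to 8.35. SPRED1 fell with the combination at 6 h, from untreated values of 8.42, 8.25, 8.22 and 8.00 to 7.91, 7.77, 7.83 and 7.86. These groups did not overlap, and the difference was -0.38 ± 0.08 (adjusted p = 0.000436). At 2 h SPRED1 was lower with the combination than with budesonide by -0.37 ± 0.08 (adjusted p = 0.00201). Formoterol alone at 2 h gave -0.26 ± 0.08 (adjusted p = 0.0569), and 0.0111 with the replicate block, in a comparison where the numbers paired the arrays. In further paired comparisons the block within each time called SPRED1 for the combination at 2 h (-0.20, adjusted p = 0.158 and 0.0436 with the block) and budesonide at 18 h (-0.18, adjusted p = 0.139 and 0.0445), and SPRED2 for the combination at 2 h (0.21, adjusted p = 0.275 and 0.0325). The SPRED1 value for the combination at 2 h was -0.37 with the mean of its 5 probe sets (adjusted p = 0.00252). SPRED2 was called once, higher with the combination than with formoterol at 2 h by 0.34 ± 0.10 (adjusted p = 0.043), with overlapping arrays, and that call was lost without formoterol replicate 1, 2 or 4, without combination replicate 1, 3 or 4, and without all replicate 1 arrays (values of 0.26 to 0.48 over single arrays left out). The call was also lost with each array centred on its median (adjusted p = 0.0597), with the mean of all probe sets (0.24, adjusted p = 0.291) and in the fit of the compared groups alone (adjusted p = 0.446).

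**Figure D2:**
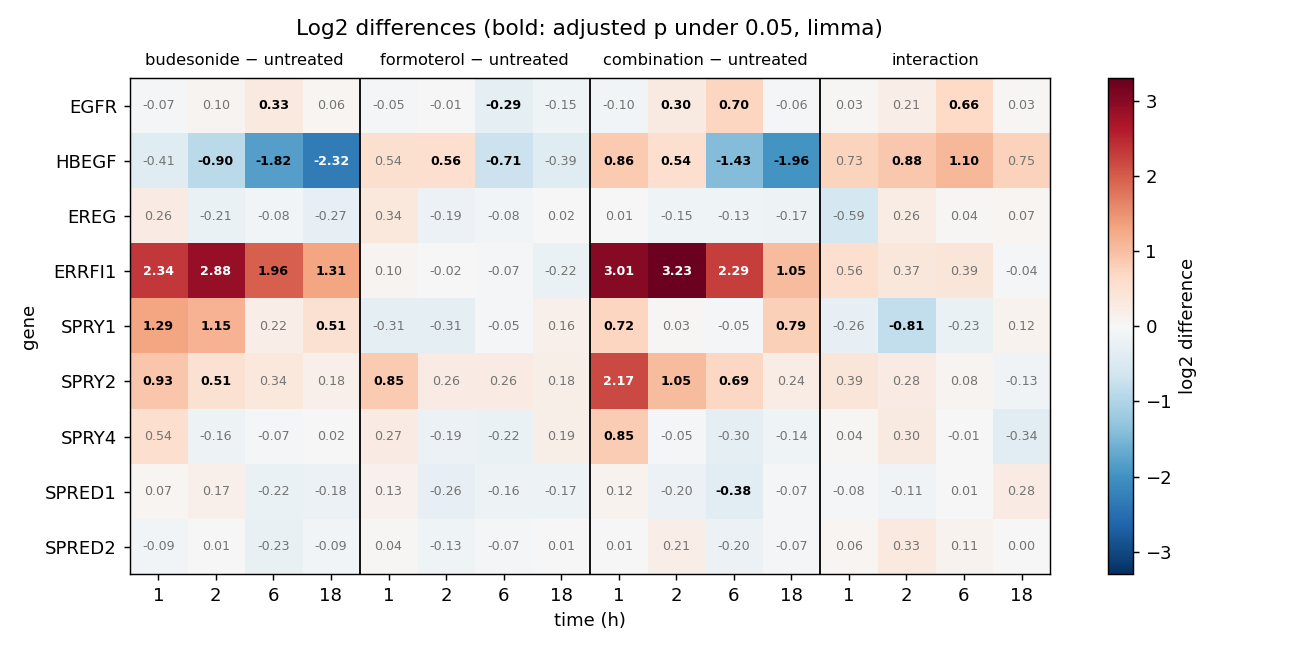
Log2 differences of the 9 measured genes (rows) at 1, 2, 6 and 18 h (columns) for each drug and the combination against untreated cells, and for the interaction (combination minus both single effects). Bold values have an adjusted p under 0.05 in limma. ERRFI1 reaches 3.23 with the combination at 2 h and HBEGF -2.32 with budesonide at 18 h, and formoterol called ERRFI1 at no time.

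Counted over the members, budesonide called 13 of 36 pairs of member and time. At 1 h 3 of 9 members were called, all of them higher (ERRFI1, SPRY1 and SPRY2), where 0.998% of all genes were called in either direction, as in all shares below. At 2 h 3 were higher and 1 lower beside 3.94% of all genes, at 6 h 2 higher and 1 lower beside 14.2%, and at 18 h 2 higher and 1 lower beside 18.3%. The median difference of the 9 members at 1 h was 0.26, beside -0.02 over all genes, and this was the value of EREG, whose signal was very low. At 2, 6 and 18 h the median was 0.10, -0.07 and 0.02, beside -0.01, 0.03 and 0.03 over all genes.

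Formoterol alone called 4 of 36 pairs. At 1 h SPRY2 was called, 1 of 9 beside 1.34% of all genes, and at 2 h HBEGF, 1 of 9 beside 4.60%, both higher. At 6 h EGFR and HBEGF were called, 2 of 9 beside 4.81%, both lower. At 18 h limma called none of the 9 beside 1.11%, and 1 had an unadjusted p under 0.05. With the replicate block formoterol called 7 of 36 pairs, and 10 with the block within each time. The shares of all genes called in these block fits were not counted, and those above belong to the fit without a block.

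The combination called 17 of 36 pairs against untreated cells. At 1 h 5 of 9 were higher beside 2.76% of all genes, at 2 h 4 higher beside 9.49%, at 6 h 3 higher and 2 lower beside 18.6%, and at 18 h 2 higher and 1 lower beside 21.0%. Against budesonide it called 9 pairs: 3 higher and 1 lower at 1 h beside 1.47%, 2 and 2 at 2 h beside 4.38%, 1 higher at 6 h beside 6.72%, and none at 18 h beside 0.651%, where 3 had an unadjusted p under 0.05 in limma. Against formoterol it called 14 pairs: 3 higher at 1 h beside 1.27%, 4 higher at 2 h beside 4.15%, 3 higher and 1 lower at 6 h beside 13.4%, and 2 higher and 1 lower at 18 h beside 17.6%. With the block within each time, where the share of all genes called was not counted, the combination called 16 pairs against budesonide. These comparisons share arrays, so their counts are not independent of each other.

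The interaction was called for 4 pairs, SPRY1 (negative) and HBEGF (positive) at 2 h beside 0.590% of all genes, and EGFR and HBEGF (both positive) at 6 h beside 0.722%. At 1 h limma called no member beside 0.171% of genes, with 4 at an unadjusted p under 0.05, and at 18 h none beside 0.276%, with 2. Of 27 moderated F tests of a drug effect over time, 14 passed: 5 for budesonide beside 12.7% of all genes, 2 for formoterol beside 4.51% and 7 for the combination beside 22.6%.

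**Figure D3:**
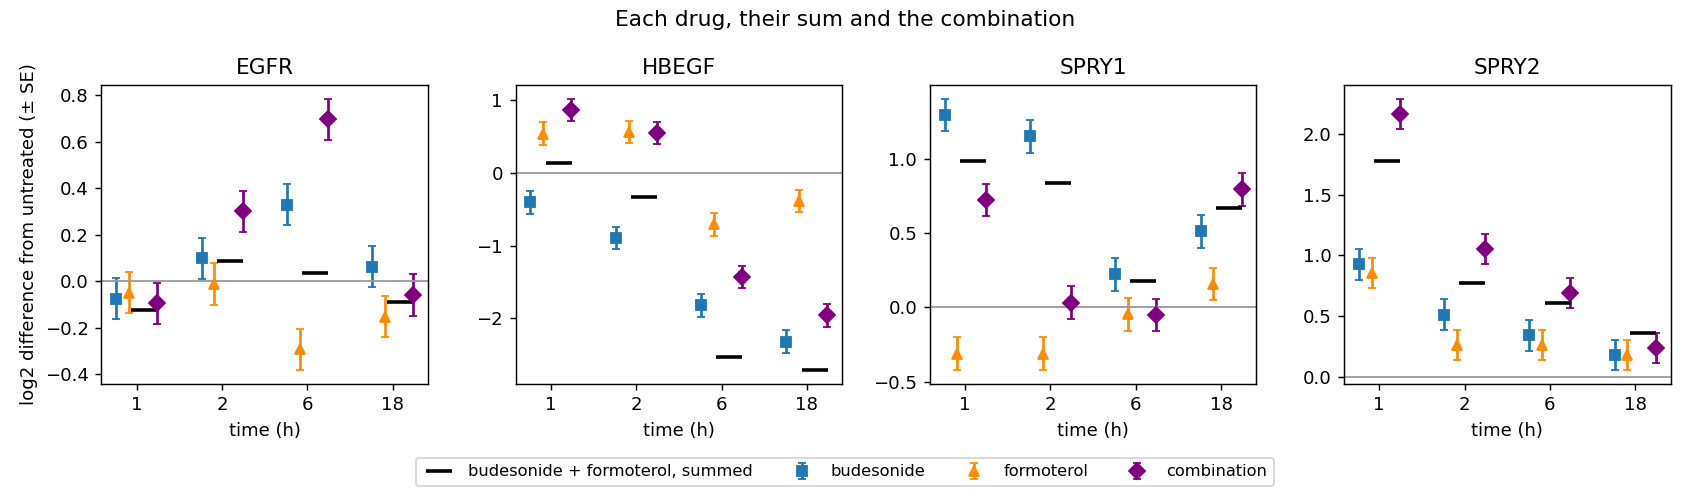
Log2 differences from untreated cells ± SE (vertical axes) at 1, 2, 6 and 18 h (horizontal axes) for EGFR, HBEGF, SPRY1 and SPRY2, with n = 4 arrays per group. Squares are budesonide, triangles formoterol, diamonds the combination, and black dashes the sum of the single effects. The combination lies above the sum for EGFR at 6 h (0.70 against 0.035) and below it for SPRY1 at 2 h (0.03 against 0.84).

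Over the 16 group means, Pearson's r was used to describe which other genes had a pattern most like each member. The genes compared share the same arrays, and those whose brightest group stayed below the median of all values were left out. For ERRFI1 the genes most alike were B3GNT5 (r = 0.971), NFKBIA (0.970) and ZFP36 (0.969). For HBEGF they were ZBTB2 (0.963), CHCHD3 (0.950) and SOAT1 (0.943), and for EGFR PCDH10 (0.934), HIP1R (0.914) and KIF13B (0.913). The value of r takes no account of size: the group means of HBEGF spanned 3.85, and those of ZBTB2, CHCHD3 and SOAT1 1.09, 0.35 and 0.81. SPRY2 was most like ZFP36L1 (0.876), RASD1 (0.846) and RIPK4 (0.831), and SPRY4 most like MYC (0.886), DUSP5 (0.868) and SOX9 (0.840). For SPRED1 and SPRED2 the nearest were ZC3H7A (0.914) and FGD1 (0.902). SPRY1 had less like neighbours, TLR4 (0.762), VEZF1 (0.761) and DACT1 (0.733). EREG was left out of this description because its span was 0.34.

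The rest of the pathway was read from lists chosen by role, and the members were not in them. Of the 3 other ErbB receptor genes, ERBB3 was lower with budesonide at 6 h by -1.04 ± 0.12 and at 18 h by -0.78 ± 0.12, and with the combination at 6 h by -1.39 ± 0.12, while formoterol alone gave -0.46 ± 0.12 at 2 h and -0.42 ± 0.12 at 6 h. ERBB3 was also lower with the combination at 2 and 18 h, and ERBB2 and ERBB4 were not called against untreated cells at any time. This is 1 of 3 beside 14.2% and 18.3% of all genes with budesonide at 6 and 18 h. With formoterol at 2 and 6 h it stood beside 4.60% and 4.81%, and with the combination at 2, 6 and 18 h beside 9.49%, 18.6% and 21.0%. Of the 8 other ligand genes, budesonide lowered TGFA, the transforming growth factor alpha gene, by -1.09 ± 0.14 at 6 h and NRG1, the neuregulin 1 gene, by -1.08 ± 0.14 at 18 h. With budesonide none of the 8 was higher at any time, and 0, 0, 1 and 2 were lower at 1, 2, 6 and 18 h, where 0.998%, 3.94%, 14.2% and 18.3% of all genes were called, so the late counts are near that background. EPGN, the epigen gene, rose by 0.79 ± 0.21 with the combination at 1 h, 1 of 8 beside 2.76% of all genes. Of the 5 ligand sheddases and their partners, ADAM9 was higher and RHBDF2 lower with budesonide at 18 h, by 0.21 ± 0.05 and -0.46 ± 0.11. In that comparison 18.3% of all genes were called. At 6 h budesonide called 1 of the 5 higher beside 14.2%, and formoterol 1 lower beside 4.81%. The combination called 1 higher and 1 lower at both 6 and 18 h, beside 18.6% and 21.0%. No treatment called any of the 5 against untreated cells at 1 or 2 h.

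Of 13 other inhibitors measured, budesonide called 1 higher at 1 h, 1 higher and 1 lower at 2 h, 7 lower at 6 h and 4 lower at 18 h, beside 0.998%, 3.94%, 14.2% and 18.3% of all genes. The median difference of the list at 6 h was -0.23, beside 0.03 over all genes. LRIG1, a membrane protein that promotes degradation of the receptor, differed by -1.63 ± 0.11 with budesonide at 18 h and by 0.91 ± 0.11 with formoterol at 2 h. DUSP5, a nuclear ERK phosphatase, rose by 1.85 ± 0.14 with the combination at 1 h, where budesonide gave 0.83 ± 0.14 and formoterol 0.80 ± 0.14, and it was lower at 18 h with budesonide by -1.14 ± 0.14. DUSP6, a cytoplasmic ERK phosphatase, was lower with formoterol at 2 h by -1.38 ± 0.16. With budesonide at 6 and 18 h none of these 13 was higher, while ERRFI1 was higher at both times and SPRY1 at 18 h. Without a replicate block SPRY2, SPRY4, SPRED1 and SPRED2 were called at neither time. At 6 h SPRY1, SPRY2, SPRY4, SPRED1 and SPRED2 gave 0.22, 0.34, -0.07, -0.22 and -0.23. Members and lists were chosen with earlier results of these data known, so setting them side by side is no test.

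Of 9 genes induced by ERK signalling, budesonide called 2 higher and 2 lower at 1 h, 2 and 4 at 2 h, 3 lower at 6 h and 5 lower at 18 h, beside the same shares of all genes. The median differences of the list at 6 and 18 h were -0.30 and -0.26, beside 0.03 over all genes at both times. The combination called 6 lower and 1 higher at 6 h beside 18.6% of all genes and 5 lower at 18 h beside 21.0%. IER3, an early response gene, was lower with budesonide at 6 h by -3.12 ± 0.13. FOSL1, an AP-1 subunit gene, was lower at 18 h by -2.04 ± 0.17. MYC rose early, by 1.69 ± 0.08 with the combination at 1 h, so the list did not move as 1 group. Of 9 adaptor and RAS-ERK core genes measured of 14, the others not analysed here, budesonide called none at 1 h, 1 higher at 2 h, 1 higher and 1 lower at 6 h and 3 lower at 18 h, beside 0.998%, 3.94%, 14.2% and 18.3% of all genes.

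**Figure D4:**
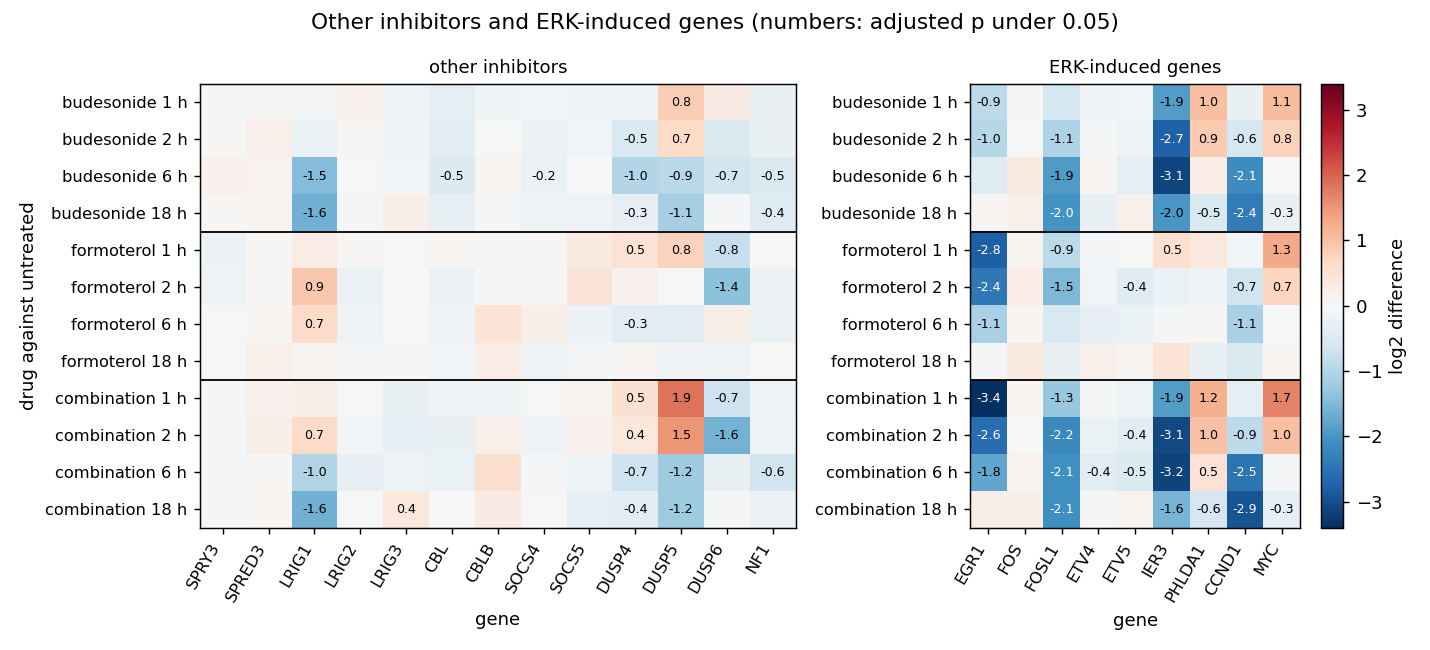
Log2 differences from untreated cells (colour) for 13 other inhibitors and 9 ERK-induced genes (columns) with each treatment at each time (rows). Numbers are printed where the adjusted p was under 0.05. With budesonide at 6 h, 7 inhibitors and 3 ERK-induced genes carry a number, and all of these are negative.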

How the data were processed

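RNA from 64 cultures of BEAS-2B cells was hybridised to Affymetrix arrays. The authors deposited log2 values for each probe set, made with RMA per the submitters' processing notes (version not given in the sources used here). RMA corrects background, normalizes and summarises probes, and where arrays are normalized together it hides a shift common to most genes. Arrays give no read depth.

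The platform annotation gave 44994 of the 49395 probe sets a single symbol, and only these were used, leaving out 1832 with several and 2569 without one. Each gene was read from its probe set with the highest mean, which gave 18132 genes, 11735 of them with several probe sets. Of 63 called pairs of member and comparison, 39 had other probe sets, which all ran the same way in 33, and the other 6 were EGFR.

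A model with 16 group means, 48 residual degrees of freedom and an intensity trend was fitted in limma 3.58.1 (R 4.3.3, with version 1.17.8 of its data.table package), checked on simulated data. It gave 27 contrasts, each adjusted over all genes by Benjamini-Hochberg, two-sided, at 0.05, and moderated F tests over time. Named genes were all members, drug targets, and genes of the role lists that passed or a list's count turned on. Also named were the 3 genes with the highest correlation to each member over group means, where the member's span was at least 0.5. Genes dimmer than the median of all values in every group were not candidates for this correlation. The members and lists were chosen with earlier results of these data known. The cell type marker lists covered epithelial, leukocyte, endothelial, and fibroblast and smooth muscle genes.

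Replicates carry the numbers 1 to 4 in each group, whose meaning the labels leave unstated. Deviations of same-numbered arrays from their group means correlated above 0.1 for every pair in 13 of 27 comparisons. All those within 2 h were among them, with a mean correlation of 0.442 for budesonide at 2 h. Untreated cells at 2 h against 1 h were not. In those 13 the numbers were taken to pair the arrays. Elsewhere the mean correlation was also positive, down to 0.112 for the combination against formoterol at 18 h. The fit had no replicate term, and where the numbers pair the arrays the p with a replicate block, across all times or within each time, is given beside calls it changed. Alternatives were the replicate block, overall and within each time, median centring, quantile normalization, dim genes left out, no trend, the mean of all probe sets, the compared arrays alone, replicate 1 arrays left out and each array left out in turn. Plots used matplotlib 3.10.9 under Python 3.11.15.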

Additional observations from a re-analysis of the deposited data

Results flagged for a closer look

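Among 144 groups of 4 arrays (9 genes in 16 groups), 6 held an array whose gap to its nearest neighbour, as a share of the group's range, was past Dixon's 95% critical value, where chance gives about 5% of groups. ERRFI1 read 8.52 on untreated replicate 3 at 1 h, above the next at 8.19, and 8.13 on untreated replicate 2 at 18 h, above the next at 7.92. SPRY4 read 5.25 on combination replicate 4 at 1 h (next 4.73) and 4.72 on untreated replicate 3 at 2 h (next 3.78). SPRED2 read 7.94 on combination replicate 4 at 6 h (next 7.67), and HBEGF 6.81 on untreated replicate 4 at 6 h, below the next at 7.27. The ERRFI1 and HBEGF treatment calls at those times kept their direction and their side of the threshold with each of these arrays left out, as did the SPRY4 call at 1 h.

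The effect of a drug differed between 1, 2, 6 and 18 h by the moderated F test in 14 of 27 tests. For budesonide the adjusted p was 2.32e-10 for ERRFI1, 7.63e-08 for SPRY1, 0.00736 for SPRY2, 0.0317 for SPRED1 and 2.78e-10 for HBEGF. The SPRED1 effect ran from 0.17 at 2 h to -0.22 at 6 h, and none of its single times was called without a replicate block. For formoterol it was 0.0268 for SPRY2 and 4.14e-06 for HBEGF, whose effect was 0.56 at 2 h and -0.71 at 6 h. For the combination it was 3.43e-17 for ERRFI1, 7.1e-07 for EGFR, 1.33e-06 for SPRY1, 4.31e-13 for SPRY2, 0.00318 for SPRY4, 0.00712 for SPRED1 and 1.33e-18 for HBEGF.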

How the results depend on the processing

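Of 63 called pairs of member and comparison, 45 stayed called under every alternative and 0 turned direction. The mean of all probe sets ended 12 calls, fits of the compared arrays alone 9, leaving out all replicate 1 arrays 9 and median centring 1. With the replicate block 0 calls were lost and 10 gained, and with the block within each time 0 of the calls it could test were lost and 27 gained. That fit gave no value for untreated cells over time, since it absorbs differences between times. Leaving out dim genes dropped SPRY4 and EREG. The mean of all probe sets also gained 5 calls, 3 of them of EREG at 1 h. The cause of these changes was not tested.

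The shares of all genes called were not counted under the alternatives. Calls for formoterol against untreated cells numbered 4, 7 with the replicate block and 10 with the block within each time. For the combination against budesonide they numbered 9, and 16 with the block within each time. For the interaction they numbered 4, 8 with the block within each time, 2 with the mean of all probe sets and 2 without replicate 1 arrays. In untreated cells over time they numbered 2, 1 with the mean of all probe sets and 0 without replicate 1 arrays. With each array left out in turn, the counts ran from 12 to 15 for budesonide, 3 to 5 for formoterol, 15 to 18 for the combination, 9 to 10 for the combination against budesonide and 12 to 15 against formoterol. They ran from 3 to 4 for the interaction, 1 to 2 for untreated cells over time (1 without untreated replicate 1, 2 or 3 at 1 h or 1, 2 or 4 at 18 h) and 13 to 15 for the time tests. The signal of EREG and SPRY4 was low, and whether this limited their calls was not tested.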
